A study of Homo sapiens with 21 samples.

Results

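The 7 human genes that encode inhibitors of cyclin-dependent kinases (CDKs) were followed through an induced pulse of GSX2 in cultures of lateral ganglionic eminence (LGE) type. They were chosen by name, as the rows of the count table for CDKN1A, CDKN1B, CDKN1C, CDKN2A, CDKN2B, CDKN2C and CDKN2D, which are 7 of its 61268 features. The rule uses gene names and no expression threshold. Of the 7, 6 passed the filter on low counts and were tested, and CDKN2A had too few reads.

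CDKs drive the cell cycle when they are bound to cyclins, and the inhibitors hold them back. The CIP/KIP family, p21 (CDKN1A), p27 (CDKN1B) and p57 (CDKN1C), binds many cyclin-CDK complexes, with CDK2 complexes as the classic targets. The INK4 family, p16 (CDKN2A), p15 (CDKN2B), p18 (CDKN2C) and p19 (CDKN2D), binds CDK4 and CDK6 alone and keeps them from the D-type cyclins. In the developing brain, several of these genes are expressed as progenitors leave the cell cycle, and p57 and p27 are the best studied of them there.

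All libraries came from H9 human embryonic stem cells, 1 line, that carry a wild-type GSX2 transgene with a 2xFLAG tag under the doxycycline-responsive TRE3G promoter. GSX2 is a homeobox transcription factor of LGE progenitors. Differentiation ran in Essential 6 medium with LDN193189, SB431542 and XAV939, then LDN193189 and SB431542, then IWP2 and Activin A. The 7 groups of 3 libraries were day 10 without doxycycline, and 12, 24 and 48 h later without the drug (NoDox) or with it (Dox). Dox cultures received 100 ng/mL for 12 h from day 10, so their 24 h and 48 h libraries follow its removal. Every group carried the transgene and none received the drug without it, so effects of the drug and of GSX2 cannot be told apart. The labels do not say that replicates were separate cultures, and p-values then measure only the spread between these samples.

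Promoter sequence shows what kind of DNA lies ahead of the 3 INK4 genes that were lower in Dox libraries at both 24 h and 48 h. Upstream windows from RefSeq (GRCh38.p14) were matched for 6 of the 7 genes, with 9 windows of 300 bases and none for CDKN1C. The stretches below lie ahead of the outermost end of each gene in the count table and hold no exon of a listed feature. They are written 5′ to 3′ on the gene's strand, and capitals mark TAAT, the core that many homeodomain proteins read, or its complement ATTA.
CDKN2B, chr9:22009306-22009555, minus strand: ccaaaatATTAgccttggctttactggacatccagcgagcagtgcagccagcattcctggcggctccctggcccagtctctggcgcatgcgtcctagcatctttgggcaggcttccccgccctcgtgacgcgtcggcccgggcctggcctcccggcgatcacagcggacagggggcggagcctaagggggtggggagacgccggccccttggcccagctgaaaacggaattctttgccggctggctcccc
CDKN2C, chr1:50960495-50960744, plus strand: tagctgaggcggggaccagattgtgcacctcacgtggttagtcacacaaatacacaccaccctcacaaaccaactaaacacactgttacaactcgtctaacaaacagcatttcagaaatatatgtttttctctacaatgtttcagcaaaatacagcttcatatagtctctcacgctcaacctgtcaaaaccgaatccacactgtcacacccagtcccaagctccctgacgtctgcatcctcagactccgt
CDKN2D, chr19:10569060-10569229, minus strand: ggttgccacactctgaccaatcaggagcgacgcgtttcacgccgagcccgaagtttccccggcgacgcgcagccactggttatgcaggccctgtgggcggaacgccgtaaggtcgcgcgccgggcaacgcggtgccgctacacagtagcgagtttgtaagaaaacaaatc
The CDKN2B stretch held 1 match and the other two held 0. The CDKN2B and CDKN2D stretches were rich in G and C, at 66.4% and 62.4%, and that of CDKN2C was at 45.6%. The CDKN2C stretch lies ahead of its outermost start only. Whole windows of its starts were at 46.3%, 71.3% and 49.3%, against 67.3% for CDKN2B and 68% for CDKN2D. Over whole windows, TAAT on either strand occurred in 4 of the 9, those of CDKN1B (2 matches), CDKN2A (1 in the window of the downstream start), CDKN2B (1) and CDKN2C (3 in the window of its most downstream start). It occurs in 50.2% of all 35116 RefSeq windows of that length. TAATTA, which contains TAAT on both strands, was in none of the 9 and in 4.84% of all windows. GGGCGG, a core read by SP-family factors, was in 7 of the 9 and in 45% of all. These matches describe letters, not binding.

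Library depth lay between 14.4 and 33.8 M counts, and 19655 features were tested. The transgene checked the labels: its level was 876 ± 114 CPM (read counts scaled to a common library size, mean ± SD, n = 3) in the 12 h Dox group, 19.5 ± 5.8 at 24 h, 0.934 ± 0.05 at 48 h, and 0.135 to 0.309 in the groups without the drug. Pairs of replicates gave chi-square values, divided by their degrees of freedom, of 1.85 to 26.8, so none matched within counting error. Replicate 3 of the 12 h Dox group (26.8 and 16.7 against its partners) and day 10 replicate 1 (10.8 and 14.5) stood apart. The neural progenitor genes SOX2 (135 to 1140 CPM as group means) and PAX6 (44.5 to 247) were detected in all groups. The stem cell label was not matched by POU5F1 (0.07 to 0.17 CPM) or NANOG (0.0294 to 0.185), while LIN28A (42.6 to 82.5) and DPPA4 (92 to 155) were still read.

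CDKN1C was the most abundant of the inhibitors in every group when counts were divided by exon length. Its level per length was 139 ± 9.84 CPM per kb of exon at day 10, and it made up 62% to 76% of the summed level of the 7 genes over the groups. CDKN1A followed at 14 to 45.7 CPM per kb, then CDKN1B at 8.1 to 17.2 and CDKN2D at 7.53 to 20.1. The place of CDKN1B rests on its summed exon length of 9.26 kb, against 3 kb for CDKN1A, and the shares use the same lengths. In CPM without this division, CDKN1B was above CDKN1A in every group, at 74.9 to 159 against 41.8 to 137 as group means. CDKN2B stood at 0.336 to 3.79 CPM per kb and CDKN2C at 0.386 to 3.74. CDKN2A was last, at 0.0143 to 0.121. The sum of the CIP/KIP family was 177 ± 13.4 CPM per kb at day 10 and 73 ± 2.7 in the 12 h Dox group, its lowest, where the 3 libraries (71.3 to 76.1) lay apart from all others (164 to 225). The INK4 sum was lowest in the 24 h Dox group (8.52 ± 0.516) and highest in the 48 h NoDox group (26.1 ± 1.2 CPM per kb).

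**Figure D1:**
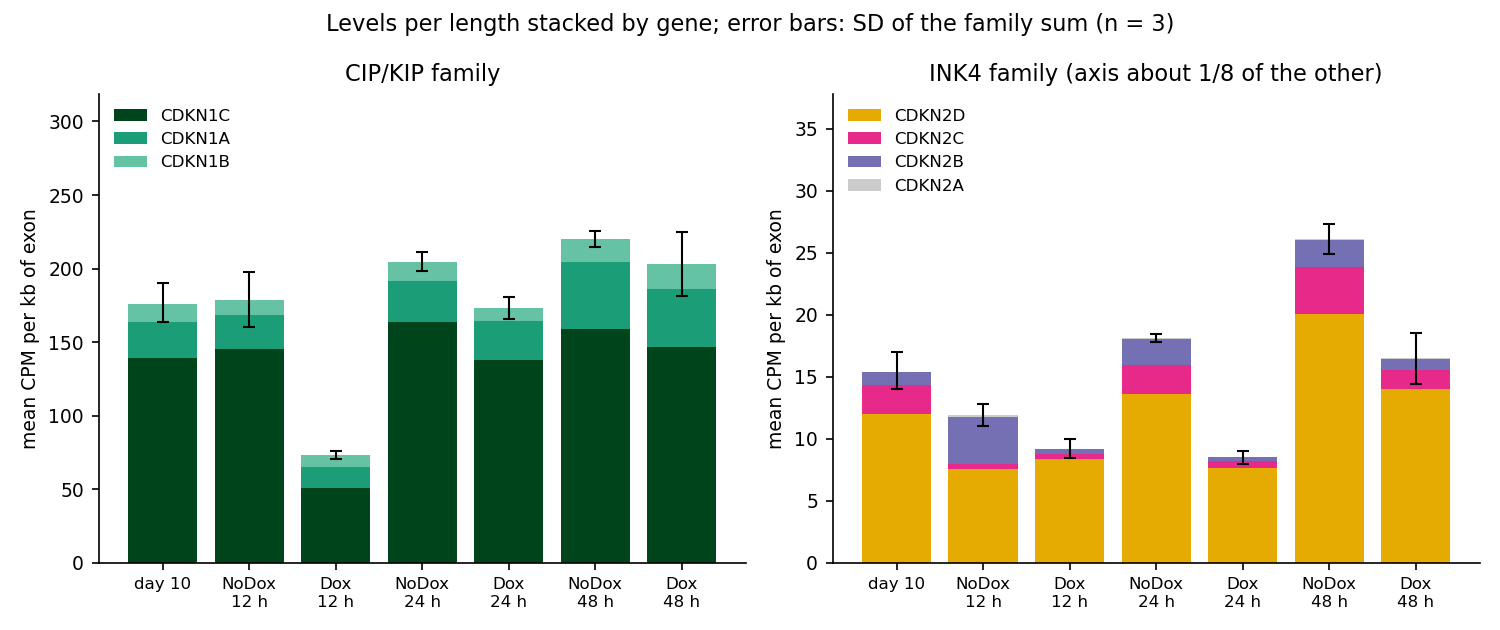
Stacked mean CPM per kb of exon (vertical axes from 0) for the CIP/KIP family on the left and the INK4 family on the right, by group, with error bars for the SD of the family sum over 3 libraries. CDKN1C fills most of the left panel and drops from 145 to 51 CPM per kb between the 12 h NoDox and Dox groups, and CDKN2D fills most of the right panel, whose axis is shorter.

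The first comparisons asked what the doxycycline pulse did to the inhibitors at each time. No tested inhibitor was higher with the drug at any of the 3 times by the edgeR test with adjustment over all genes. In comparisons of Dox with NoDox, fell and rose mean lower and higher than NoDox at the same time, not a course over time. The Dox mean of CDKN2D, for example, went up from 11.5 CPM at 24 h to 21.1 at 48 h. At 12 h, 4 of 6 tested inhibitors fell (CDKN1A, CDKN1B, CDKN1C and CDKN2B), against 39.7% of all tested genes called in either direction (19.8% higher, 19.9% lower). The libraries of both arms were wholly apart for 4 of 6, as for 46.9% of all genes. At 24 h, 5 of 6 fell (all but CDKN1A), against 33.9% of all genes called (17% higher, 16.9% lower), and 5 of 6 were wholly apart (51.9% of all). At 48 h the 3 tested INK4 genes fell and no CIP/KIP gene passed, against 18.2% of all genes called (9.23% higher, 8.94% lower), and 3 of 6 were wholly apart (36% of all). The median log2 fold change of the 6 was -0.55, -0.70 and -0.38 at the 3 times, and that of all tested genes was 0.01, 0.00 and 0.01. Bulk RNA cannot tell fewer cells that express a gene from less of its RNA per cell. With library totals as the only scaling, the median of all genes at 12 h moved from 0.01 to 0.19, calls went from 3898 higher and 3912 lower to 7340 and 2213, and the inhibitors to 1 higher and 3 lower.

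**Figure D2:**
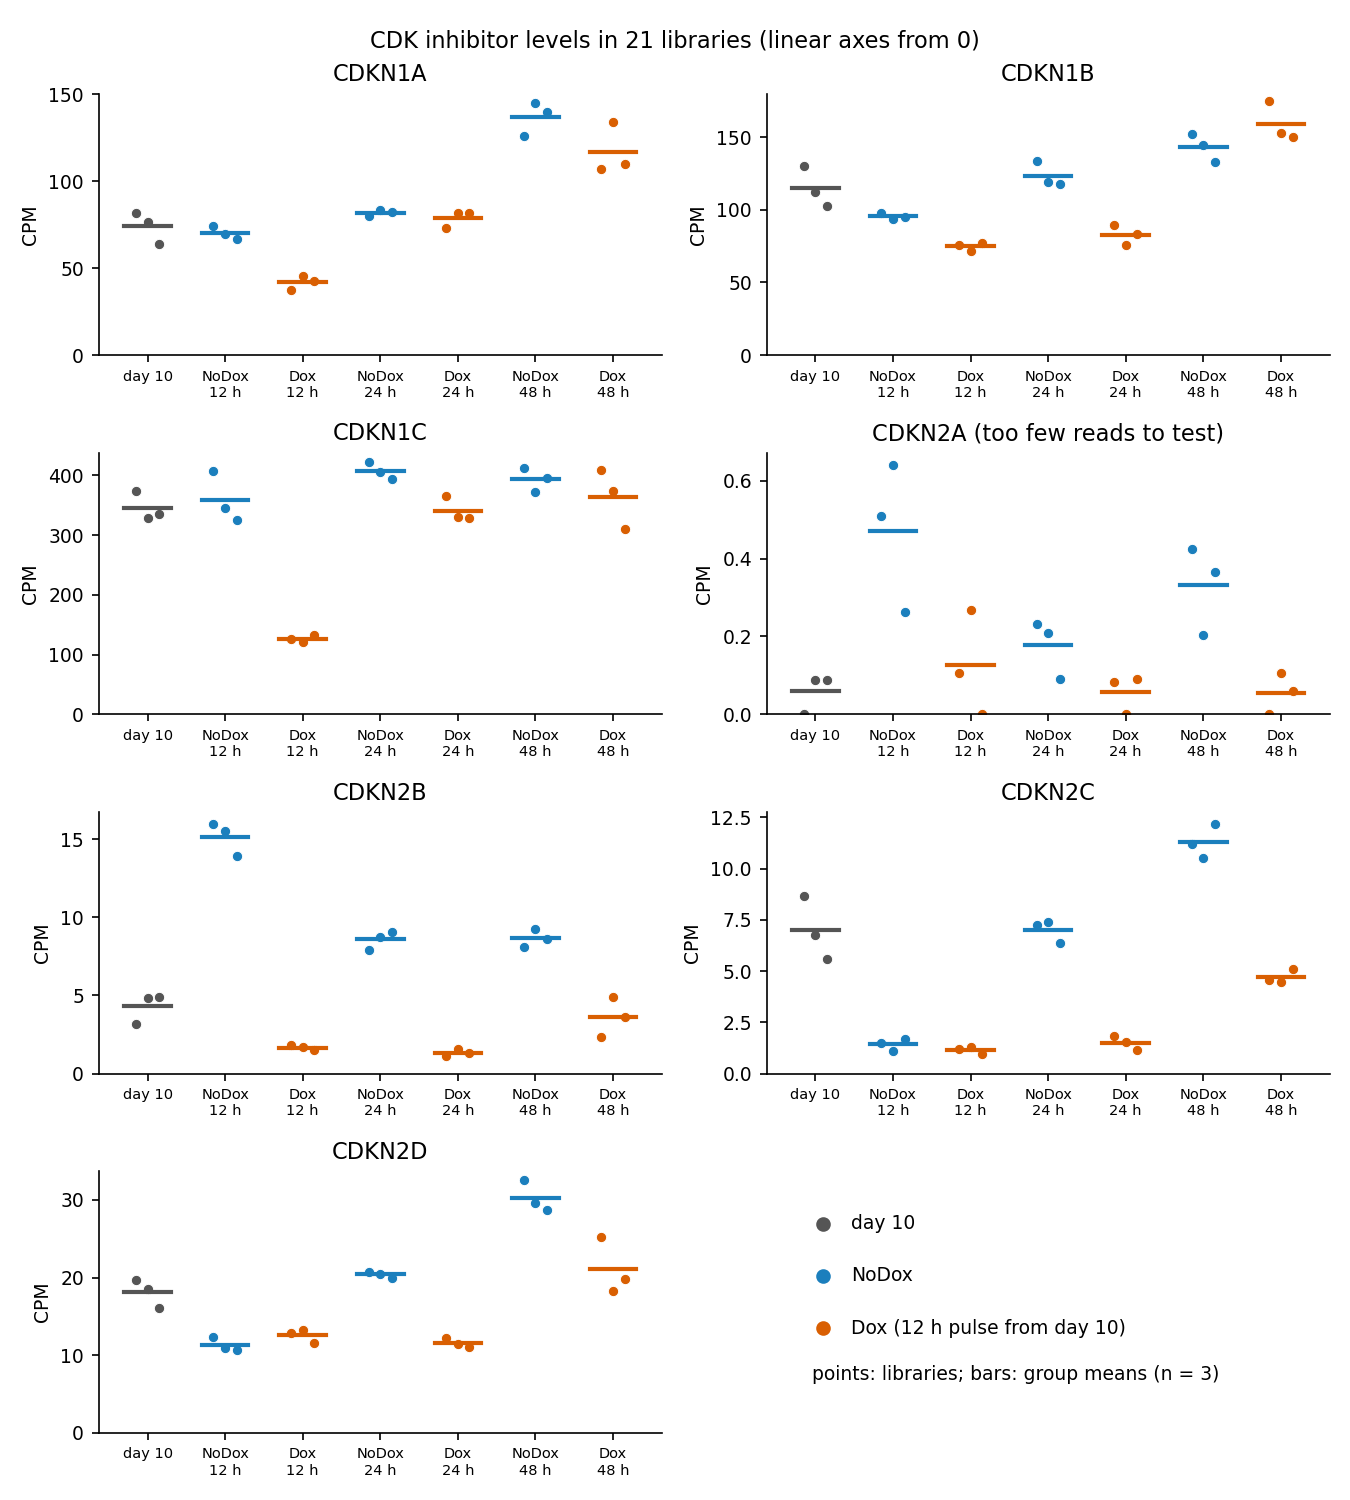
CPM in each of the 21 libraries (points) with group means (bars, n = 3) for each inhibitor, on linear axes from 0 that differ between panels, with day 10 in grey, NoDox in blue and Dox in orange. CDKN1C shows its low values in the 12 h Dox libraries (121 to 133 CPM), CDKN2B in the 12 h and 24 h Dox libraries (1.15 to 1.82), and CDKN2C at 12 h in both arms (0.968 to 1.67). The 48 h Dox libraries of CDKN2B (2.36 to 4.88) lie below NoDox but overlap day 10 (3.17 to 4.91).

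CDKN1C (chromosome 11, 2883213 to 2885775, minus strand, hg38) encodes p57, an imprinted inhibitor active in embryonic tissues. The 12 h NoDox libraries held 408, 345 and 326 CPM and the 12 h Dox libraries 126, 121 and 133. Every Dox library was below a value of 326, with little spread among the 3. CDKN1C thus fell 2.84-fold, from 360 ± 42.6 to 126 ± 5.86 CPM, a log2 fold change of -1.51 ± 0.09 (± SE; adjusted p = 2.1e-14). At 24 h the libraries held 423, 406 and 394 CPM without the drug and 365, 330 and 328 with it. These groups were close but did not overlap, and the fall was small (-0.26 ± 0.08, adjusted p = 0.0174). This call was lost without Dox replicate 2 (adjusted p = 0.077), without Dox replicate 3 (0.0766) and without NoDox replicate 1 (0.0722). At 48 h the groups overlapped, at 413, 373 and 395 against 409, 374 and 311 CPM, and the difference of -0.11 ± 0.08 did not pass (adjusted p = 0.4, 95% interval -0.28 to 0.06). The Dox effect at 24 h exceeded that at 12 h by 1.25 ± 0.12 (adjusted p = 2.48e-09), which tests the recovery itself.

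CDKN1A (chromosome 6, 36676460 to 36687337, plus strand) encodes p21, which stops the cycle after DNA damage and other stress. At 12 h its level was 74.1, 69.8 and 66.7 CPM in NoDox libraries and 37.4, 45.2 and 42.8 in Dox libraries. The groups were wholly apart, and CDKN1A fell 1.68-fold (-0.75 ± 0.09, adjusted p = 1.55e-07). The 24 h libraries overlapped, at 79.8, 83.6 and 82.3 CPM without the drug and 72.8, 81.9 and 81.5 with it, and the difference was -0.06 ± 0.09 (adjusted p = 0.667, 95% interval -0.24 to 0.12). The effect differed between 12 h and 24 h by 0.69 ± 0.13 (adjusted p = 0.000106). At 48 h both arms were higher than before, with 126, 145 and 140 CPM in NoDox libraries and 107, 134 and 110 in Dox libraries. Only Dox replicate 2 lay within the NoDox range, and the difference of -0.23 ± 0.09 missed the threshold (adjusted p = 0.0712). It passed without that library (-0.34, adjusted p = 0.0091), without NoDox replicate 1 (0.0396), with library totals only (0.0146), with no filter (0.0165), when only these groups were fitted (0.0158) and with the replicate block (0.0439).

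CDKN1B (chromosome 12, 12685498 to 12722369, plus strand) encodes p27, which holds cells out of the cycle as they differentiate. Its 12 h libraries held 97.6, 93.6 and 95.3 CPM without the drug and 75.9, 71.7 and 77.2 with it. The groups did not overlap, and CDKN1B fell 1.27-fold (-0.35 ± 0.08, adjusted p = 0.000646), a call that was lost with library totals only (-0.17, adjusted p = 0.0558). At 24 h the values were 134, 119 and 118 CPM in NoDox libraries and 89.4, 75.6 and 83.4 in Dox libraries. The groups stayed apart and the fall was 1.5-fold (-0.58 ± 0.08, adjusted p = 6.67e-07). At 48 h the order was the other way, with 152, 145 and 133 CPM against 175, 153 and 150 in Dox libraries. The groups overlapped and the difference of 0.15 ± 0.08 did not pass (adjusted p = 0.175). The change of the effect from 24 h to 48 h was 0.74 ± 0.11 (adjusted p = 9.85e-06), and that from 12 h to 24 h was -0.23 ± 0.11 (adjusted p = 0.114). The latter passed with library totals only (-0.43, adjusted p = 0.00179) and with the replicate block (0.0457).

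CDKN2B (chromosome 9, 22002903 to 22009305, minus strand) encodes p15, known as a target of TGF-beta signalling. It held the largest log2 decrease of the 6 tested inhibitors at 12 h and at 24 h. At 12 h the NoDox libraries held 16, 15.5 and 13.9 CPM and the Dox libraries 1.82, 1.69 and 1.48. The gap was far wider than the spread in either group, and CDKN2B fell 8.99-fold (-3.17 ± 0.18, adjusted p = 1.01e-14). At 24 h the values were 7.9, 8.77 and 9.09 CPM against 1.15, 1.57 and 1.31, a 6.36-fold fall (-2.67 ± 0.19, adjusted p = 4.41e-12). At 48 h they were 8.12, 9.24 and 8.58 CPM against 2.36, 4.88 and 3.64. The groups were still apart, with more spread among the Dox libraries, and the fall was 2.38-fold (-1.25 ± 0.18, adjusted p = 8.23e-06). The effect at 48 h was smaller than that at 24 h by 1.42 ± 0.27 (adjusted p = 0.000267), while 24 h and 12 h differed by 0.50 ± 0.29 (adjusted p = 0.197). CDKN2B was thus the only tested inhibitor that passed at all 3 times, at levels between 93 and 971 reads per group.

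CDKN2C (chromosome 1, 50960745 to 50974634, plus strand) encodes p18. At 12 h both arms were low, at 1.48, 1.1 and 1.67 CPM without the drug and 1.22, 1.31 and 0.968 with it. The groups overlapped and the difference was -0.26 ± 0.24 (adjusted p = 0.414, 95% interval -0.76 to 0.23). At 24 h the NoDox libraries held 7.26, 7.39 and 6.35 CPM while the Dox libraries were still at 1.85, 1.52 and 1.13. No value was shared between these ranges, and CDKN2C was 4.63-fold lower with the drug (-2.21 ± 0.18, adjusted p = 6.4e-11). At 48 h the values were 11.2, 10.5 and 12.2 CPM against 4.55, 4.46 and 5.09, again apart (-1.27 ± 0.16, adjusted p = 1.17e-06). The Dox effect moved by -1.95 ± 0.31 from 12 h to 24 h (adjusted p = 1.29e-05) and by 0.95 ± 0.25 from 24 h to 48 h (adjusted p = 0.00508).

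CDKN2D (chromosome 19, 10566460 to 10569059, minus strand) encodes p19, the INK4 protein found in many neurons. Its 12 h libraries held 12.4, 10.9 and 10.7 CPM without the drug and 12.9, 13.3 and 11.6 with it. The ranges overlapped and the difference of 0.16 ± 0.11 did not pass (adjusted p = 0.26), though with library totals only it was higher (0.34, adjusted p = 0.00977). At 24 h NoDox libraries held 20.7, 20.5 and 20 CPM and Dox libraries 12.2, 11.4 and 11. All 3 Dox libraries stood below the NoDox range, a 1.77-fold fall (-0.82 ± 0.10, adjusted p = 2.89e-07). At 48 h the values were 32.6, 29.6 and 28.7 CPM against 25.2, 18.3 and 19.8, also apart (-0.52 ± 0.10, adjusted p = 0.000413). The effect differed between 12 h and 24 h by -0.98 ± 0.15 (adjusted p = 8.7e-06) and between 24 h and 48 h by 0.30 ± 0.15 (adjusted p = 0.136).

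CDKN2A (chromosome 9, 21967752 to 21995301, minus strand) encodes p16 and, from another first exon and reading frame, ARF, and a gene count cannot separate them. It was barely detected, with 0 to 14 reads per library. The groups held 4 reads at day 10, 30 and 10 at 12 h (NoDox and Dox), 15 and 4 at 24 h, and 19 and 3 at 48 h. In CPM, NoDox libraries lay at 0.264 to 0.64, 0.0913 to 0.233 and 0.204 to 0.425 at the 3 times, and Dox libraries at 0 to 0.269, 0 to 0.0904 and 0 to 0.106. The libraries of 0 reads allow levels of up to 0.13 to 0.211 CPM, from 3 counts and for counting error only. A fit without the filter on low counts passed in 1 comparison of 11, NoDox at 12 h against day 10 (2.74 ± 0.83, adjusted p = 0.00904), and in no Dox comparison (adjusted p of 0.0621, 0.308 and 0.081 for Dox against NoDox).

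Some reads of these genes could belong to neighbours. An exon of CDKN2A overlaps the antisense gene CDKN2B-AS1, which had 34 reads over all libraries against 85 for CDKN2A, and 7.16% of the 50-base words of CDKN2A recur in CDKN2B-AS1 or CDKN2B. For CDKN2B the shared words came to 0.765%. CDKN1A overlaps DINOL (30 reads against 38059) and CDKN2C overlaps an unnamed antisense feature (4 against 2150). The library kit was directional, and the strand setting of the counting is not given in the sources used here.

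**Figure D3:**
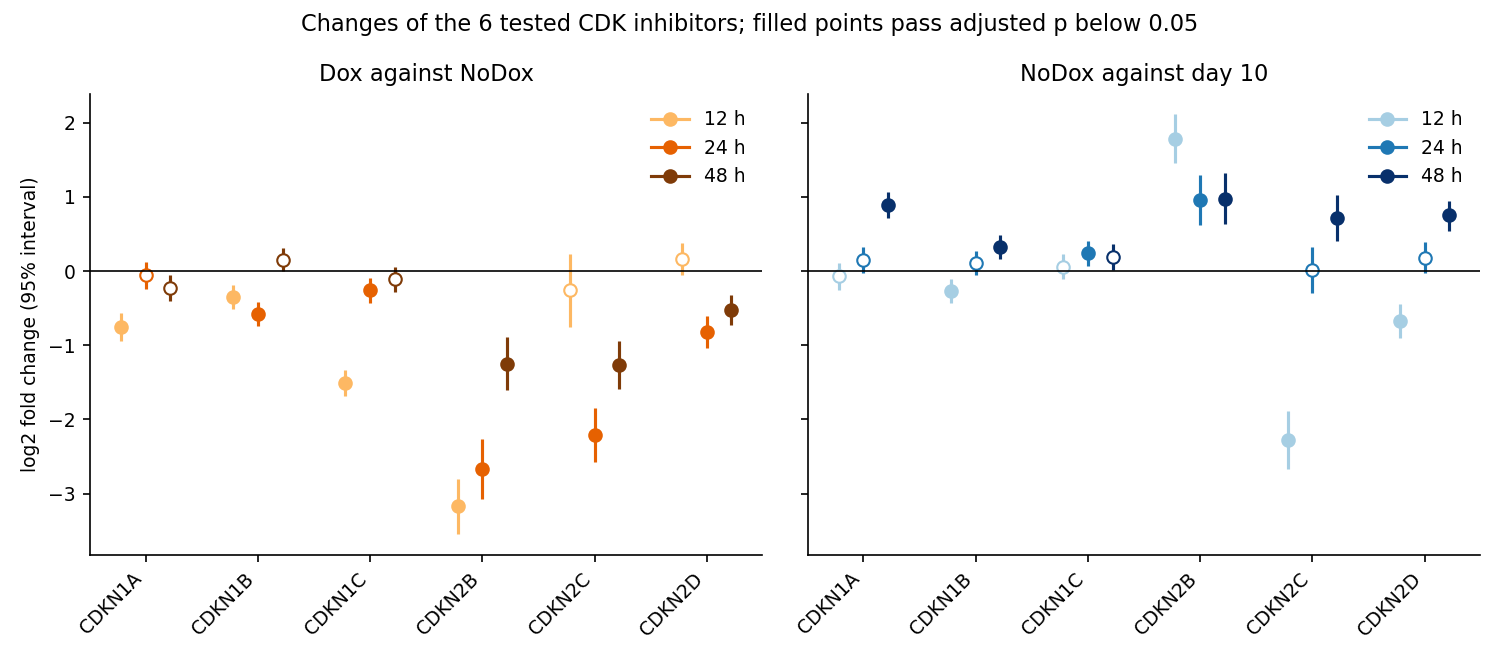
Log2 fold changes with 95% intervals for the 6 tested inhibitors, Dox against NoDox on the left and NoDox against day 10 on the right, at 12, 24 and 48 h (light to dark). Filled points passed an adjusted p below 0.05. All filled points on the left lie below 0, and on the right CDKN2B is above 0 at all 3 times while CDKN2C runs from -2.28 to 0.71.

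The uninduced cultures were compared with day 10 to see how the inhibitors moved with time in culture. These comparisons share the NoDox libraries with those above. Differentiation, time in culture and time of harvest changed together here, so they cannot be told apart. At 12 h CDKN2B rose (1.78 ± 0.16, adjusted p = 2.23e-09) and CDKN2C, CDKN2D and CDKN1B fell, so that 1 of 6 was called higher and 3 lower, against 31.8% of all genes called (15.5% higher, 16.3% lower). The libraries were wholly apart for 4 of 6 and for 43.8% of all genes. CDKN2C dropped from 8.67, 6.78 and 5.57 CPM at day 10 to its 12 h values near 1, a 4.86-fold fall (-2.28 ± 0.19, adjusted p = 5.91e-10). CDKN2D fell from 19.7, 18.5 and 16.1 CPM (-0.67 ± 0.11, adjusted p = 2.23e-05). CDKN1B fell from 130, 112 and 103 CPM (-0.27 ± 0.08, adjusted p = 0.00969), a call lost without day 10 replicate 1, its highest library (-0.18, adjusted p = 0.0877). CDKN1A (-0.07 ± 0.09) and CDKN1C (0.06 ± 0.08) did not pass.

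At 24 h only 2 of 6 were called higher than at day 10, against 17.3% of all genes called (8.84% higher, 8.47% lower), and 3 of 6 were wholly apart (36% of all). CDKN2B rose 1.94-fold (0.96 ± 0.17, adjusted p = 0.000145). CDKN1C rose 1.18-fold (0.24 ± 0.08, adjusted p = 0.0481) and lost its call with 5 of the 6 libraries left out in turn, day 10 replicate 1 being the exception (adjusted p of 0.0704 to 0.169), and with the deposited normalized counts (0.0501). CDKN2C was back at its day 10 mean of 7 CPM (0.02 ± 0.15, adjusted p = 0.937).

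By 48 h, 5 of 6 inhibitors were above day 10 and none was below, against 41.7% of all genes called (21.4% higher, 20.2% lower), and 5 of 6 were wholly apart (48% of all). CDKN1A rose from 81.7, 76.6 and 63.8 CPM at day 10 to at least 126 (1.85-fold, 0.89 ± 0.09, adjusted p = 9.81e-09). CDKN2B (0.97 ± 0.17), CDKN2D (0.75 ± 0.10) and CDKN2C (0.71 ± 0.15) rose by similar log2 amounts, and CDKN1B less (0.32 ± 0.08, adjusted p = 0.00145). CDKN1C stood at 393 against 346 CPM and did not pass (0.19 ± 0.08, adjusted p = 0.0743), but passed with no filter (0.0365), with the replicate block (0.0278) and without day 10 replicate 1 (0.0299). Of 10 postmitotic neuron markers, 8 were above day 10 at 48 h, and 8 were already above it at 24 h, when CDKN1A, CDKN1B, CDKN2C and CDKN2D did not pass. Their summed level was 1480 to 1530 CPM at day 10, 2050 to 2360 at 24 h and 2010 to 2400 at 48 h. Of the 6 mesenchymal and endothelial markers, 4 were tested and 3 of these (COL1A1, COL3A1 and LUM) rose by 48 h, with sums of 381 to 514 CPM at day 10 and 805 to 1010 at 48 h. Of 10 proliferation genes, 9 fell by 48 h, with MCM4, a subunit of the replicative helicase, at -0.92 ± 0.08.

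The Dox libraries were also set against day 10, which they share as control with the NoDox comparisons. At 12 h all 6 tested inhibitors were below day 10 and wholly apart from it, against 48.5% of all genes called (24.5% higher, 24% lower) and 48.7% apart. Their values ran from CDKN2C (-2.54 ± 0.19), CDKN1C (-1.45 ± 0.09) and CDKN2B (-1.39 ± 0.20) to CDKN2D (-0.51 ± 0.11). CDKN2B thus stood on opposite sides of day 10 in the 2 arms, at 15.2 ± 1.1 CPM in NoDox, 1.67 ± 0.175 in Dox and 4.31 ± 0.984 at day 10. At 24 h, 4 of 6 were below day 10 and 4 were wholly apart, against 37.3% of all genes called (18.4% higher, 19% lower) and 48.4% apart. These were CDKN1B (-0.47 ± 0.08), CDKN2B (-1.71 ± 0.21), CDKN2C (-2.19 ± 0.19) and CDKN2D (-0.64 ± 0.11). At 48 h CDKN1A (0.66 ± 0.09) and CDKN1B (0.47 ± 0.08) were above and CDKN2C (-0.56 ± 0.16, adjusted p = 0.00536) below, so 3 of 6 were called and 3 were wholly apart, against 55.2% of all genes called (28.2% higher, 27% lower) and 58.7% apart. Without 48 h Dox replicate 2, CDKN2B (-0.58, adjusted p = 0.0176) and CDKN2D (0.30, adjusted p = 0.0261) passed as well, which made 5. CDKN2D also passed with the replicate block (0.21, adjusted p = 0.0435), which made 4, and without day 10 replicate 1 (0.28, adjusted p = 0.0368).

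Changes of the Dox effect between times, tested as interaction terms, were called for 4 of 6 inhibitors from 12 h to 24 h, 2 up and 2 down (30.9% of all genes, 16.1% up and 14.8% down), and for 3 of 6 from 24 h to 48 h, all up (25.8%, 12.7% up and 13.1% down). The CIP/KIP genes CDKN1A and CDKN1C recovered in the first interval, while the INK4 genes CDKN2C and CDKN2D went down in it relative to NoDox. CDKN1B recovered in the second interval, and CDKN2B and CDKN2C did so in part, both still lower with the drug at 48 h.

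The order of the groups differed between genes. For CDKN1C and CDKN1A the 12 h Dox group was lowest and did not overlap the next. For CDKN2B the 24 h and 12 h Dox groups were lowest and overlapped each other, and the 12 h NoDox group was highest and apart from the rest. For CDKN2C the 12 h Dox, 12 h NoDox and 24 h Dox groups formed an overlapping low set, and the 48 h NoDox group (11.3 ± 0.893 CPM) was highest and apart. CDKN2D had the same 3 groups lowest and the same one highest. CDKN1B was highest in the 48 h Dox group (159 ± 13.3 CPM), which overlapped the 48 h NoDox group. Over the 21 libraries, which share time and drug, the log2 CPM of CDKN2C and CDKN2D had a Pearson correlation of 0.924, the highest among the 6, and that of CDKN2B and CDKN2D one of 0.315, the lowest.

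The tested neighbours of CDKN2B on chromosome 9 fell with it at 12 h and did not share its course after that. MTAP, a methionine salvage enzyme, fell at 12 h (-0.79 ± 0.07) and rose at 24 h (0.41 ± 0.07), as did DMRTA1, a DM-domain factor, which was at 34.1 ± 2.42 against 17 ± 1.06 CPM at 12 h (NoDox, Dox) and rose by 0.26 ± 0.08 at 24 h. At 48 h neither passed (0.07 ± 0.07 and 0.22 ± 0.08). CDKN2B-AS1 and CDKN2A-DT were not tested, with 34 and 2 reads in all. Of 8 genes of the imprinted region that holds CDKN1C, 4 rose and none fell at 12 h (median 0.44, all genes 0.01), and none of the 8 fell at 24 h, when 5 rose. At 48 h NAP1L4 (-0.24 ± 0.06, adjusted p = 0.00246) and H19 (-0.65 ± 0.23, adjusted p = 0.0458) fell, and the rest did not pass. The shares of all genes called were 39.7% at 12 h (19.8% higher, 19.9% lower), 33.9% at 24 h (17% higher, 16.9% lower) and 18.2% at 48 h (9.23% higher, 8.94% lower). At 12 h KCNQ1, a potassium channel subunit, rose from a low 0.458 ± 0.168 CPM (1.90 ± 0.32). The growth factor IGF2 (1.02 ± 0.08) and the transporter gene SLC22A18 (1.18 ± 0.16) rose too while CDKN1C fell. KCNQ1OT1, the long RNA of the imprinting centre, did not pass at 12 h (-0.01 ± 0.17, adjusted p = 0.975). PHLDA2, an imprinted regulator of placental growth, did not pass at 12 h (0.35 ± 0.23) and rose at 24 h (1.87 ± 0.26, adjusted p = 1.44e-06).

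The kinases that INK4 proteins bind, CDK4 and CDK6, passed at 12 h only, and each D-type cyclin passed at 12 h and again later. CDK6 fell from 59.9 ± 0.654 to 20.8 ± 2.72 CPM (-1.52 ± 0.10), CDK4 (-0.48 ± 0.07), CCND1 (-0.60 ± 0.07) and CCND2 (-0.41 ± 0.06) fell less, and CCND3 rose (0.38 ± 0.11, adjusted p = 0.00537). These directions held with library totals only. At 24 h CCND1, which encodes cyclin D1, was at 397 ± 12.4 against 160 ± 12 CPM (1.31 ± 0.07, adjusted p = 1.51e-14), and the other four did not pass. At 48 h CCND2 was higher (0.34 ± 0.06) and CCND3 lower (-0.39 ± 0.12). Of 5 cyclin E, cyclin A and CDK2 genes, the classic targets of CIP/KIP proteins, none rose and 3, 3 and 2 fell at 12, 24 and 48 h (medians -0.31, -0.38 and -0.31). Of 9 cyclin B, CDK1 and activator genes, 1 rose and 2 fell at 12 h and at 24 h, and none rose and 6 fell at 48 h. Of the 13 pocket protein and E2F genes, 2 rose and 7 fell at 12 h and again at 24 h, with E2F7 (-1.11 ± 0.12) and E2F1 (-0.94 ± 0.08) lower at 12 h. With library totals only, the 12 h counts became 2 higher and 1 lower for the cyclin E, cyclin A and CDK2 genes, 3 and 2 for the cyclin B list and 3 and 6 for the pocket protein and E2F list. Over all genes, 39.7%, 33.9% and 18.2% were called at 12, 24 and 48 h, and the 3 of 9 cyclin B genes called at 12 h and at 24 h were no larger a share.

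**Figure D4:**
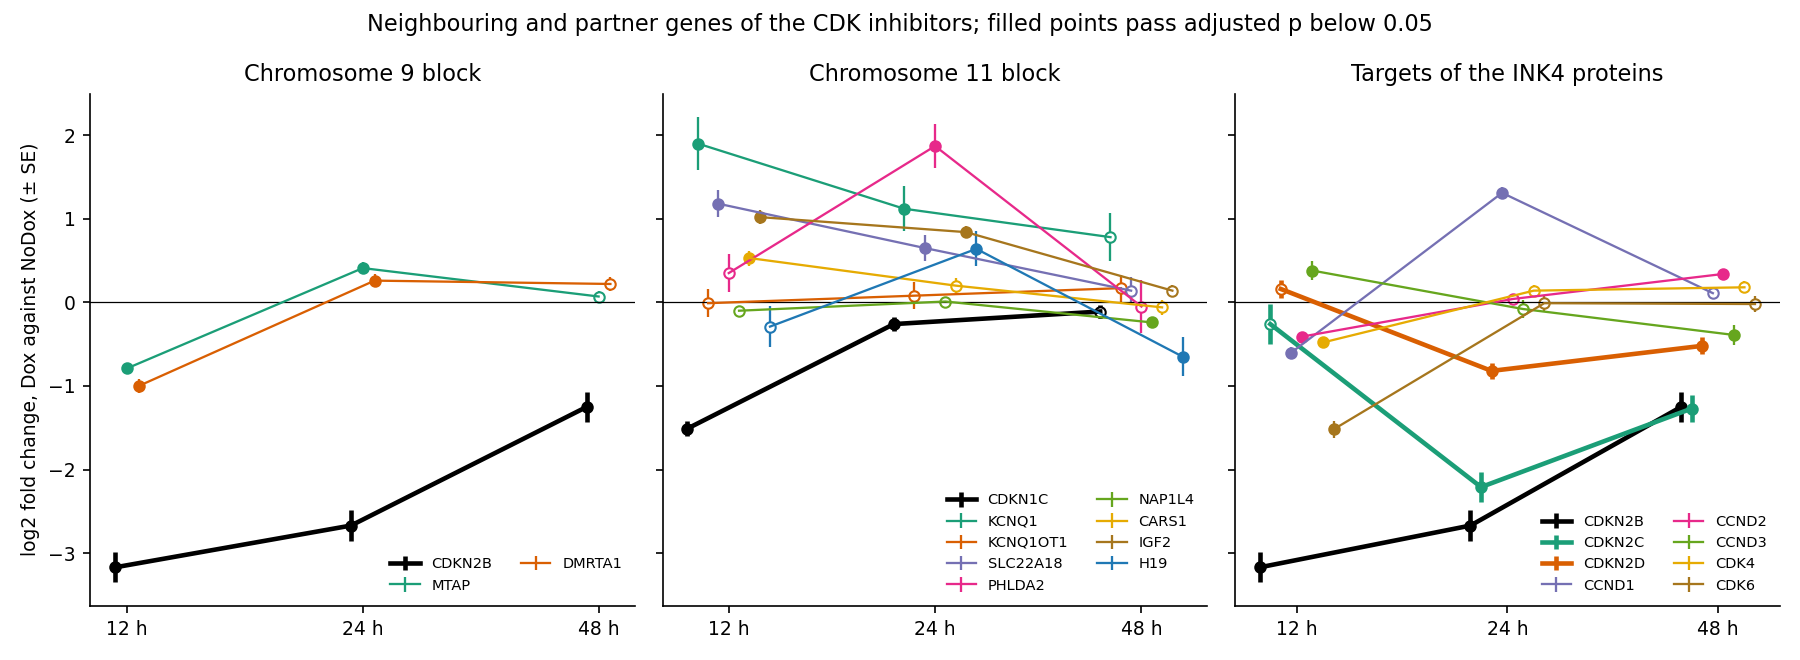
Log2 fold change, Dox against NoDox, ± SE at 12, 24 and 48 h for CDKN2B with its chromosome 9 neighbours, for CDKN1C with genes of its imprinted region, and for the INK4 genes with the D-type cyclins, CDK4 and CDK6. Inhibitors are drawn with thick lines and filled points passed an adjusted p below 0.05. CDKN2B stays below -1 at all times while MTAP and DMRTA1 cross 0 between 12 h and 24 h, and CCND1 peaks at 1.31 at 24 h.

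Regulators of the inhibitors were read from lists, whose counts stand against 39.7%, 33.9% and 18.2% of all genes called at 12, 24 and 48 h. Of 13 genes of the TGF-beta, SMAD and MYC axis, which regulates CDKN2B, 2 rose and 6 fell at 12 h, 7 rose and 3 fell at 24 h, and 5 rose and none fell at 48 h (medians -0.02, 0.22 and 0.20). SMAD7, a feedback target of the pathway, did not pass at 12 h (-0.02 ± 0.11) and rose at 24 h (0.68 ± 0.10). MYC, which represses CDKN2B, went from 8.96 ± 1.08 to 1.72 ± 0.0645 CPM at 12 h (-2.38 ± 0.16, adjusted p = 3.93e-13) and rose at 24 h (0.60 ± 0.13), and MYCN went the same way (-1.06 ± 0.08 and 1.32 ± 0.08). CDKN2B was below its NoDox level at both times, and whether MYC or MYCN acted on it here was not tested. Of 16 Polycomb genes and KDM6B, which act on the INK4 loci, 1 rose and 8 fell at 12 h, 1 rose and 10 fell at 24 h, and 1 rose and none fell at 48 h, with BMI1, a repressor of CDKN2A, at -0.55 ± 0.07 at 24 h. Of 12 genes that degrade CIP/KIP proteins, 1 rose and 7 fell at 12 h, 2 rose and 2 fell at 24 h, and none rose and 4 fell at 48 h, and SKP2, the receptor for p27, fell at 12 h (-0.31 ± 0.06). Among the 4 FOXO genes, activators of CDKN1B, FOXO6 (1.12 ± 0.15) and FOXO4 (0.93 ± 0.12) rose and FOXO1 fell (-0.35 ± 0.12) at 12 h. With library totals only, the 12 h counts were 6 higher and 3 lower for the TGF-beta axis, 3 and 4 for the Polycomb genes, 3 and 2 for degradation and 2 and 0 for FOXO, and the calls of SKP2 (-0.13, adjusted p = 0.0878) and FOXO1 (-0.17, adjusted p = 0.274) were lost.

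Markers of cell types were read beside the inhibitors, and their part in the results was not tested. Their counts stand against 39.7%, 33.9% and 18.2% of all genes called at 12, 24 and 48 h. The 10 telencephalic and LGE progenitor markers, all detected, had sums of 2770 to 3020 CPM with the drug at 12 h and of 6410 to 6450 CPM without it, and 8 fell while GSX2 alone rose. GSX2 is the gene that the transgene encodes, and its row went from 8.62 ± 1.8 to 288 ± 9.73 CPM at 12 h. Its reads are part of the 12 h sums, and whether they came from the transgene was not tested. The marker sums were 5820 to 6100 against 6030 to 6120 CPM at 24 h, and 9510 to 10000 against 8020 to 8650 at 48 h. Members then went both ways at 24 h and 48 h, such as MEIS2 (-0.82 ± 0.08, -0.36 ± 0.09) and NES (0.54 ± 0.06, 0.36 ± 0.06). GSX2 itself was lower with the drug at 24 h (-1.04 ± 0.22) and 48 h (-2.49 ± 0.31). The 10 postmitotic neuron markers, all detected, summed to 962 to 1150 against 1690 to 1970 CPM at 12 h, to 1460 to 1670 against 2050 to 2360 at 24 h, and to 2150 to 2400 against 2010 to 2400 at 48 h. At 12 h and at 24 h 8 of 10 fell, while RBFOX3, a splicing factor of neurons, rose (0.73 ± 0.17 and 0.57 ± 0.16). At 48 h INA, a neurofilament gene, fell (-0.33 ± 0.10) and DCX, of migrating neurons, rose (0.55 ± 0.13). The sums of the 6 mesenchymal and endothelial markers overlapped at 12 h (590 to 887 CPM with the drug, 756 to 831 without it) and at 48 h (834 to 1110 and 805 to 1010). At 24 h they were 889 to 1310 CPM in Dox libraries against 404 to 464, with DCN at 0 in both. COL1A1, a collagen gene, carried this sum (1140 ± 226 against 426 ± 30.8 CPM) and rose, whereas COL3A1 (6.03 ± 0.452 against 12.1 ± 1.68 CPM) and LUM (0.837 ± 0.202 against 2.72 ± 0.492) fell. The 5 neural crest markers summed to 25.2 to 28.5 CPM with the drug against 34.6 to 39.5 without it at 12 h. They summed to 36 to 47.4 against 21.7 to 25 CPM at 24 h, and to 36.7 to 43 against 28.9 to 32 at 48 h. The 5 mesendoderm markers stayed at or below 1.73 CPM in sum, with FOXA2 at 0 in every group, and of the 6 pluripotency markers TDGF1 was at 0 in 6 of the 7 groups.

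Of 10 proliferation genes, none rose and 8 fell at 12 h, when CDKN1A, CDKN1B, CDKN1C and CDKN2B were lower too (median -0.58, all genes 0.01). The shares of all genes called at 12, 24 and 48 h were 39.7%, 33.9% and 18.2%. MCM7, a helicase subunit (-1.01 ± 0.06), and MCM5 (-0.84 ± 0.07) fell, while MKI67 (-0.08 ± 0.17) and TOP2A (-0.08 ± 0.08) did not pass. At 24 h 2 rose and 4 fell, and at 48 h 1 rose and 4 fell, with MKI67 (-0.75 ± 0.17) and TOP2A (-0.61 ± 0.08) among the latter. With library totals only, 7 fell and none rose at 12 h.

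Genes with the most similar course were taken by Pearson correlation of log2 CPM over the 21 libraries among 13496 tested genes of at least 2 CPM on average. The libraries share time, drug and depth, so these values describe shape only. Among the genes most like CDKN1C were SOX4 (0.973) and SOX2 (0.967), transcription factors of the neural lineage that also stood lowest in the 12 h Dox group, SOX2 at 135 CPM against 838. CDKN1A was most like TUBB2A (0.979), a tubulin, JUN (0.964) and SDC2 (0.964). CDKN1B was most like DCTN2 (0.972), CDK8 (0.963) and HECA (0.963). The nearest to CDKN2B were GASK1B (0.947), GOLIM4 (0.944) and the chloride channel ANO1 (0.94), which went from 8.09 to 0.992 CPM at 12 h. CDKN2C was nearest to SNAPC3 (0.971), NEGR1 (0.948) and the mitotic kinesin KIF23 (0.937), and CDKN2D to the glutamate transporter SLC17A7 (0.965), PDE2A (0.962) and LCORL (0.945). SLC17A7 was at 30.9 CPM in NoDox and 12.6 in Dox at 24 h.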

How the data were processed

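RNA was sequenced after poly-A selection with a directional kit, per the labels' protocols. The authors deposited whole-number counts per gene with each gene's summed exon length, and the submitters' processing notes name STAR 2.7.9, Subread 2.0.3, DESeq2 with no version, and build hg38. Neither annotation nor strandedness of the counting was stated there. The authors also deposited a signal table of normalized counts. Each column equals the counts divided by 1 factor, and only features reaching 10 counts in 3 or more samples are listed. It served as an alternative, as log2 of the deposited value + 1.

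All 21 libraries were fitted with edgeR 4.0.16 (R 4.3.3): TMM scaling, filterByExpr (19655 features with 99.92% of counts), a robust quasi-likelihood F test with 14 residual degrees of freedom, and Benjamini-Hochberg adjustment over all genes at adjusted p below 0.05. CPM used TMM-scaled library sizes. The SE is the absolute log2 fold change over the square root of F. Intervals are at 95%. There were 11 comparisons. Samples were grouped by title. The procedure was tested on simulated data in which few genes differed, and only in the 12 h Dox group. That setting does not test the scaling where many genes change, so no conclusion is drawn from it.

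All 7 inhibitors are named. Of the other lists, up to 4 members with the largest change past the threshold, or genes needed beside an inhibitor, are named, and the 3 genes of most similar course for each tested inhibitor. Some genes that this rule would name, and 1 list, are not reported here. Members and lists were chosen with earlier results of these data known. Alternatives were DESeq2 size factors, library totals only, no filter, DESeq2 1.42.0, limma 3.58.1 on the deposited normalized counts, only the groups compared, a replicate block, and each library left out.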

Additional observations from a re-analysis of the deposited data

Results flagged for a closer look

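For 6 inhibitors the Dox effect differed between times by a test of the interaction, in log2 units with SE. From 12 h to 24 h the effect changed by 0.69 ± 0.13 for CDKN1A (adjusted p = 0.000106), by 1.25 ± 0.12 for CDKN1C (adjusted p = 2.48e-09), by -1.95 ± 0.31 for CDKN2C (adjusted p = 1.29e-05) and by -0.98 ± 0.15 for CDKN2D (adjusted p = 8.7e-06). From 24 h to 48 h it changed by 0.74 ± 0.11 for CDKN1B (adjusted p = 9.85e-06), by 1.42 ± 0.27 for CDKN2B (adjusted p = 0.000267) and by 0.95 ± 0.25 for CDKN2C (adjusted p = 0.00508). Values above 0 mean that Dox libraries moved up relative to NoDox libraries.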

How the results depend on the processing

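Of 462 member values under settings other than a left-out library, 449 kept direction and side of the threshold, as did 444 of 468 with 1 library left out. With the latter, genes called for Dox against NoDox at 48 h ran from 2236 (without NoDox replicate 2) to 3302 (3571 with all libraries; 2303 without Dox replicate 1), and for NoDox at 24 h against day 10 from 2063 (without NoDox replicate 1) to 3050 (3402 with all). Inhibitors called ran from 1 to 2 for NoDox at 24 h against day 10 and from 3 to 5 for Dox at 48 h against day 10. The former count was also 1 with the deposited normalized counts. Signs turned only in values that did not pass: CDKN1C in NoDox at 12 h (-0.04 to 0.12 with 1 library left out, below 0 without NoDox replicate 1), in Dox at 24 h (-0.07 to 0.04, above 0 without day 10 replicate 1 or Dox replicate 2 or 3) and in Dox at 48 h (-0.03 to 0.16, below 0 without Dox replicate 1, and -0.08 with library totals only), CDKN2C in NoDox at 24 h (-0.12 to 0.18, below 0 without day 10 replicate 3 or NoDox replicate 1 or 2), and CDKN1A in Dox at 24 h (-0.01 to 0.16, below 0 without day 10 replicate 3), all against day 10. The cause was not tested. Library totals only gave 1017 higher and 2835 lower genes for Dox against NoDox at 48 h (1814 and 1757 with TMM), 3176 and 5174 for NoDox at 48 h against day 10 (4215 and 3973), 7707 and 2850 for Dox at 12 h (4807 and 4717) and 3765 and 7169 for Dox at 48 h (5550 and 5300) against day 10, and 1914 and 5719 (3157 and 2917) and 1886 and 3190 (2491 and 2573) for the effect differences at 24 h and 48 h.

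Replicate numbers were not taken as pairs. The deviations of same-numbered Dox and NoDox libraries correlated at 0.056, 0.0217 and -0.0138 at 12 h, at 0.0616, 0.0359 and 0.0312 at 24 h, and at 0.067, 0.0284 and 0.03 at 48 h, and at the later times every Dox library correlated best with its own number. Over genes of at least 10 CPM the values were 0.0722, 0.0884 and -0.149 at 12 h, 0.253, 0.122 and 0.115 at 24 h, where every pair was above 0.1, and 0.31, 0.213 and 0.0634 at 48 h. With a replicate block, 4, 5 and 4 inhibitors and 7864, 6787 and 3716 genes were called at 12, 24 and 48 h. Depth limits CDKN2A, whose 85 reads leave a level near the floor of 0.0874 to 0.211 CPM for 3 counts.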
